A study of Mus musculus with 18 samples.

Results

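The genes described here encode aminoacyl-tRNA synthetases, the enzymes that load amino acids onto transfer RNAs, and a pair of scaffold proteins that hold several of these enzymes in 1 complex. They were taken from the count table by their gene names and number 39 of the 46603 genes in the count table, namely 21 cytosolic synthetase genes, 16 mitochondrial ones and the scaffold genes Aimp1 and Aimp2. RNA was sequenced from pancreatic acinar cells of xCT-/- mice (KO) and of xCT+/+ mice (WT), with 3 libraries for each of KO day 0, WT day 0, KO day 1, WT day 1, KO day 4 and WT day 4 and 18 in all. Day 0 cells were freshly isolated, and the later cells had been kept in suspension in Advanced RPMI medium, in which acinar cells dedifferentiate. Both genotypes come from the strain first made by Sato and colleagues, in which KO animals carry the deletion of Slc7a11 in every cell. The study's methods describe its mouse primary cell experiments as biological repeats, but the labels do not say which of these libraries share an animal, so p-values measure only the spread between these libraries, which may in part be technical. An age for the mice that gave these cells is not given in the sources used here. The preparation is of exocrine tissue, so other cells of the pancreas can be present.

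Synthetases fall into class I and class II by the fold of their catalytic domain, and each charges the transfer RNAs of 1 amino acid, apart from Eprs, which carries both the glutamate and the proline enzyme. In the cytosol of animals, several of them sit together with the Aimp scaffold proteins in the multisynthetase complex, and the others work free. Mitochondria translate their own small genome with a separate set of synthetases, which nuclear genes encode and the organelle imports. Gars and Kars serve both compartments from 1 gene. Acinar cells make large amounts of secreted digestive enzymes and so have a high demand for charged transfer RNAs. The transcription factor ATF4, which the amino acid response and endoplasmic reticulum stress raise, is known to activate many cytosolic synthetase genes in mammalian cells. xCT, the product of Slc7a11, is the subunit of system xC- that imports cystine in exchange for glutamate.

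Libraries held 12127500 to 20135400 counts. Values are given as CPM, the counts of a gene relative to the size of its library after scaling by TMM, a method that sets the bulk of genes equal between libraries, and a gene was called changed when its p from the quasi-likelihood test of edgeR, adjusted over all genes tested, was under 0.05. Slc7a11 had 3, 6 and 1 counts in KO libraries at day 0, against 50, 48 and 49 in WT libraries, and 23, 33 and 30 at day 4, against 2192, 2286 and 2037, so its level fits the genotype labels. WT replicate 1 held counts of the Y-linked gene Ddx3y at each day (6, 18 and 92) and the other 15 libraries held none, so these 3 WT libraries hold RNA of male origin and genotype is in part confounded with sex. Markers of acinar cells took 69.3% to 71.4% of counts at day 0 and 7.55% to 13.3% at day 4. This leaves fewer reads for other genes at day 0, when the 15 mitochondrial members other than Lars2 had 0 to 144 counts per library, against 38 to 2229 for cytosolic members.

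Cytosolic synthetase genes were expressed at higher levels than mitochondrial ones. Per length, as the deposited FPKM averaged over all 18 libraries, the highest cytosolic levels were those of Nars (78.1, asparagine), Gars (44.2, glycine) and Wars (39.6, tryptophan), and the lowest were those of Tarsl2 (1.13, a second threonine enzyme), Farsa (2.80, 1 subunit of the phenylalanine enzyme) and Eprs (5.74, glutamate and proline). Among mitochondrial genes Lars2 (leucine) stood at 247 FPKM, followed by Fars2 (3.69, phenylalanine) and Cars2 (3.14, cysteine), and the lowest were Pars2 (0.258, proline), Wars2 (0.295, tryptophan) and Mars2 (0.349, methionine). Apart from Lars2, every mitochondrial member lay below all cytosolic members but Tarsl2 and Farsa. The scaffold genes Aimp1 and Aimp2 averaged 5.06 and 6.19 FPKM. The order of levels depends on the gene length the authors used. This was 0.658 to 4.97 times the longest coding transcript in GENCODE vM21, an annotation other than the authors' (median 1.28). For 8 members, Eprs and Aimp1 among them, it was over 2 times.

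At the top of the cytosolic list, Nars had 84.1, 90.1 and 77.6 FPKM in KO libraries at day 0, against 74.4, 67.5 and 74.4 FPKM in WT libraries. All KO values lay above all WT values for this gene at day 0, as they did at day 1, where Nars stood at 90.1 FPKM in each KO library and at 70.7, 64.0 and 74.4 FPKM in WT libraries. Gars had 39.1, 46.02 and 39.1 FPKM in KO libraries at day 0 and 39.1, 33.8 and 35.4 FPKM in WT libraries, where the groups met at their edges. Equal values recur because full quantile normalization gives genes of the same rank the same value. At the low end, Tarsl2 had 2.53, 2.12 and 1.60 FPKM in KO libraries at day 0 and 2.25, 2.05 and 1.72 FPKM in WT libraries, and by day 4 it had 0.495, 0.478 and 0.512 FPKM in KO libraries and 0.546, 0.546 and 0.717 FPKM in WT libraries. Farsa varied little, between 2.002 and 3.26 FPKM over the 18 libraries, and Eprs lay between 4.17 and 7.07 FPKM. Pars2 rested on few reads, with 0, 7 and 2 counts in KO libraries at day 0 and 2, 2 and 3 counts in WT libraries. Wars2 had 17, 11 and 8 counts in KO libraries at day 0 and 11, 6 and 4 counts in WT libraries, and Mars2 had 25, 18 and 21 counts against 7, 20 and 21. Differences in these 3 genes were hard to detect at this depth. Fars2 and Cars2, the strongest mitochondrial members after Lars2, ranged over the 18 libraries from 2.43 to 7.23 and from 1.59 to 5.98 FPKM, with their highest values at day 0.

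The counts of Lars2 are uncertain. They ranged from 34818 to 57805 per library, or 83.0% to 98.8% of all reads on mitochondrial members. A stretch of 72 aligned bases in the 3′ UTR of Lars2, at chr9:123462048-123462119 of GRCm38, matched the gene Gm15564 on chromosome 16 at 71 positions (98.6%). Lars2 had 7.41 ± 0.0704 reads per read of Gm15564 in KO and 7.05 ± 0.0676 in WT at day 0 (SD, n = 3 each), and 7.48 ± 0.0853 in KO and 7.42 ± 0.367 in WT at day 4, so both genes kept nearly the same ratio while other members changed. Of all reads in a library, Lars2 took 0.290% ± 0.00396 in KO and 0.335% ± 0.0159 in WT at day 0, and 0.218% ± 0.0285 in KO and 0.267% ± 0.0169 in WT at day 4. At day 1 it took 0.353% ± 0.0262 in KO and 0.384% ± 0.00828 in WT, so its share was highest at day 1 and lowest at day 4. The share of the 21 cytosolic members was higher at each later day, reaching 0.488% ± 0.00831 in KO and 0.474% ± 0.00828 in WT at day 4, against 0.0838% ± 0.00721 in KO and 0.0682% ± 0.00496 in WT at day 0. Where the reads of Lars2 came from was not tested, and compartment sums are given without it.

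**Figure D1:**
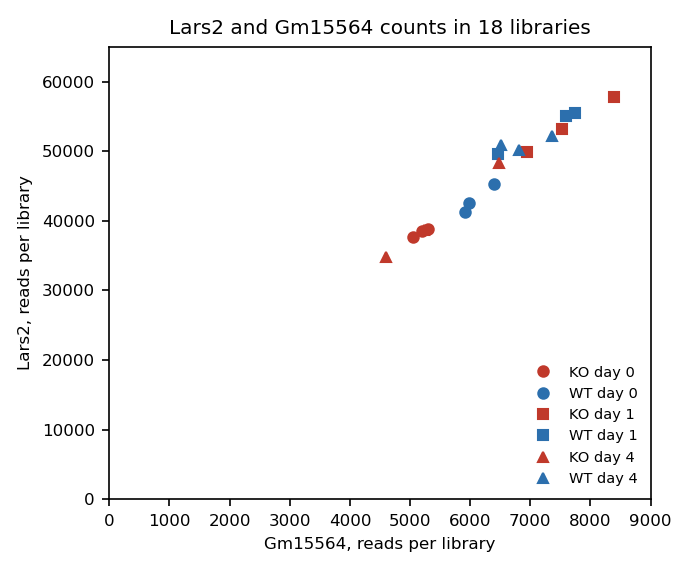
Reads of Lars2 (y axis, counts per library) against reads of Gm15564 (x axis, counts per library) in the 18 libraries, with KO in red, WT in blue and a marker shape for each day. The points lie close to 1 line, between 34818 and 57805 reads of Lars2, whatever the day or genotype.

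Summed over the 21 cytosolic genes in FPKM, KO libraries lay above WT libraries at day 0 and day 1 and among them at day 4. The sums were 437, 432 and 406 FPKM in KO libraries at day 0, against 383, 362 and 378 FPKM in WT libraries. At day 1 they were 417, 444 and 431 FPKM in KO libraries, against 371, 357 and 370 FPKM in WT libraries. By day 4 the sums met, at 370, 376 and 379 FPKM in KO libraries and 369, 362 and 379 FPKM in WT libraries. This depended on the scale, for as TMM-scaled CPM per kilobase the day 4 sums were 354, 371 and 373 in KO libraries and 400.1, 379.9 and 422 in WT libraries, with all KO libraries below all WT libraries. The 15 mitochondrial genes without Lars2 summed to 28.3 ± 2.37 FPKM in KO and 29.1 ± 4.33 FPKM in WT at day 0 (SD, n = 3 each), with overlapping libraries. They summed to 22.5 ± 1.13 and 22.3 ± 0.580 FPKM in KO and WT at day 1. At day 4 this mitochondrial sum was higher in KO, with 22.1 ± 0.335 FPKM in KO and 20.04 ± 0.252 FPKM in WT, and all KO libraries (21.7 to 22.3) lay above all WT libraries (19.8 to 20.2). The ratio of the cytosolic to this mitochondrial sum was 15.1 ± 1.79 in KO and 13.1 ± 1.62 in WT at day 0, 19.2 ± 0.970 and 16.4 ± 0.747 at day 1, and 16.97 ± 0.377 and 18.5 ± 0.633 at day 4. In FPKM, KO and WT libraries overlapped in this ratio at day 0 and did not at day 1, where KO was higher, or at day 4, where KO was lower. With CPM per kilobase in place of FPKM the ratio was 13.7 ± 0.472 in KO and 16.2 ± 0.977 in WT at day 4, the same order, while at day 1 it was 18.2 ± 1.23 and 16.7 ± 0.914, and the libraries overlapped. At day 0 it was 18.8 ± 1.70 in KO and 15.6 ± 0.806 in WT, with all KO libraries above all WT libraries, so whether the groups overlapped at day 0 and day 1 depended on the scale.

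**Figure D2:**
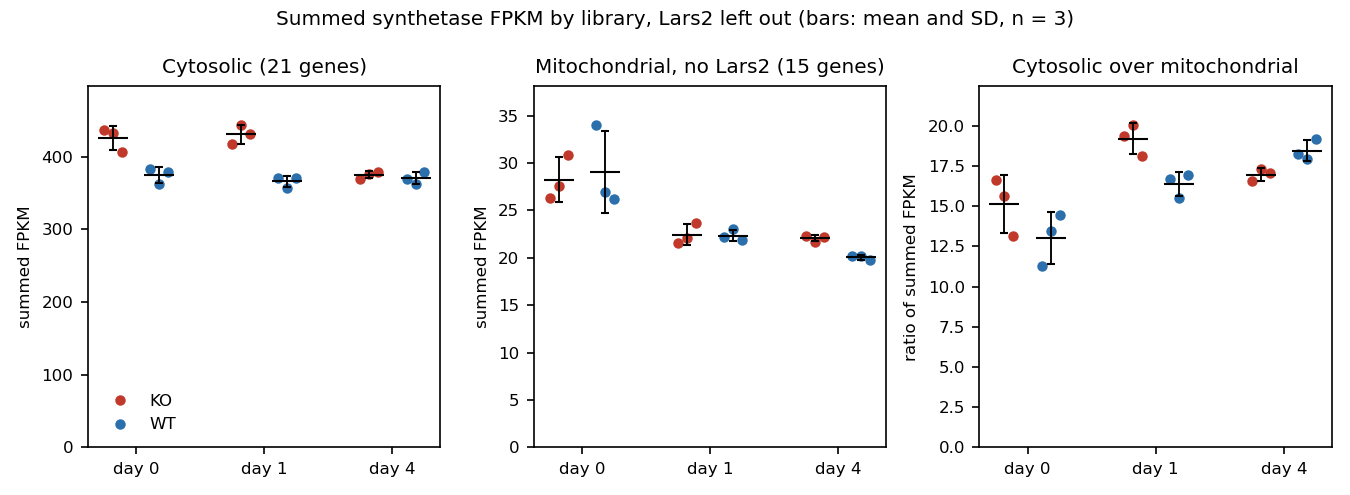
Summed FPKM (y axes of the left and middle plots) of the 21 cytosolic and of the 15 mitochondrial synthetase genes without Lars2, and their ratio (right plot), by day, with KO in red to the left of WT in blue, a point for each library and bars for the mean and SD (n = 3). The cytosolic sum is 406 to 437 FPKM in KO and 362 to 383 FPKM in WT at day 0 and meets at day 4, where the mitochondrial sum is 21.7 to 22.3 FPKM in KO and 19.8 to 20.2 FPKM in WT.

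In freshly isolated cells, at day 0, Rars and Tars were higher in KO than in WT, and no member was lower. These were 2 of 39 members, where 0.644% of the 13203 tested genes were called higher and 0.530% lower. Rars, the arginine enzyme of the multisynthetase complex at chr11:35808381-35834506 on the minus strand, had 39.4, 61.5 and 56.4 CPM in KO libraries, against 38.4, 33.1 and 25.5 CPM in WT libraries. The lowest KO library lay just above the highest WT library. The log2 fold change was 0.70 (SE 0.14, adjusted p = 0.00614 from edgeR). Tars, the free threonine enzyme at chr15:11383663-11399658 on the minus strand, had 79.7, 93.6 and 80.7 CPM in KO libraries, against 62.7, 51.1 and 57.8 CPM in WT libraries. Here the groups were well apart, with a log2 fold change of 0.57 (SE 0.10, adjusted p = 0.00304 from edgeR).

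The rest of the cytosolic genes leaned the same way without passing the test. Of the 21, 20 had a positive log2 fold change, with a median of 0.24 and a range of -0.06 (Kars) to 0.70, beside a median that TMM sets near 0 over all genes tested. In 6 of them (Rars, Tars, Nars, Gars, Cars and Iars) every KO library lay above every WT library, and in 0 every KO library lay below, where 7.01% of all genes tested lay above and 5.77% below. Nars (log2 fold change 0.34, SE 0.10, adjusted p = 0.0755), Gars (0.34, SE 0.10, adjusted p = 0.108) and Cars (0.41, SE 0.13, adjusted p = 0.12, cysteine) were the nearest to the threshold of those not called. The 8 cytosolic members of the multisynthetase complex had a median of 0.21 and the 13 free ones a median of 0.25. Mitochondrial members went either way, with 8 positive and 8 negative values, a median of -0.002 and a range of -0.56 (Vars2, valine) to 0.73 (Nars2, asparagine), and 0 of 16 were called. Those with an unadjusted p under 0.05 numbered 12 higher and 0 lower among cytosolic members and 1 higher and 2 lower among mitochondrial members. The share of all genes at this unadjusted threshold was not counted, here or in the comparisons below. DESeq2, run in place of edgeR, called 3 members higher and 1 lower, where it called 201 of 13775 genes higher and 166 lower. The 2 scaffold genes had values of 0.11 (Aimp1) and -0.19 (Aimp2) and were not called. Whether the cytosolic and the mitochondrial members differed in their response to genotype was not tested as a group.

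The call on Tars held in each of 15 alternative settings, with adjusted p up to 0.0383. That on Rars was lost in 3 of 15, among them without KO replicate 2 (adjusted p = 0.0593), which left 1 member called. Without WT replicate 1 at every day, which held Ddx3y reads, 6 members were called higher, where 89 of 13455 genes were. Markers of lymphocytes and lymph node tissue also differed at day 0, summing to 0 to 1.88 CPM in KO libraries, with 11 of 17 genes at 0 in every library, against 16.3 to 36.1 CPM in WT libraries with none of the genes at 0 throughout. Islet markers summed to 362 to 514 CPM in KO libraries and 596 to 2003 CPM in WT libraries. Their part in these results was not tested. In such bulk libraries, a lower share of cells that express a gene and less of its RNA per cell cannot be told apart.

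**Figure D3:**
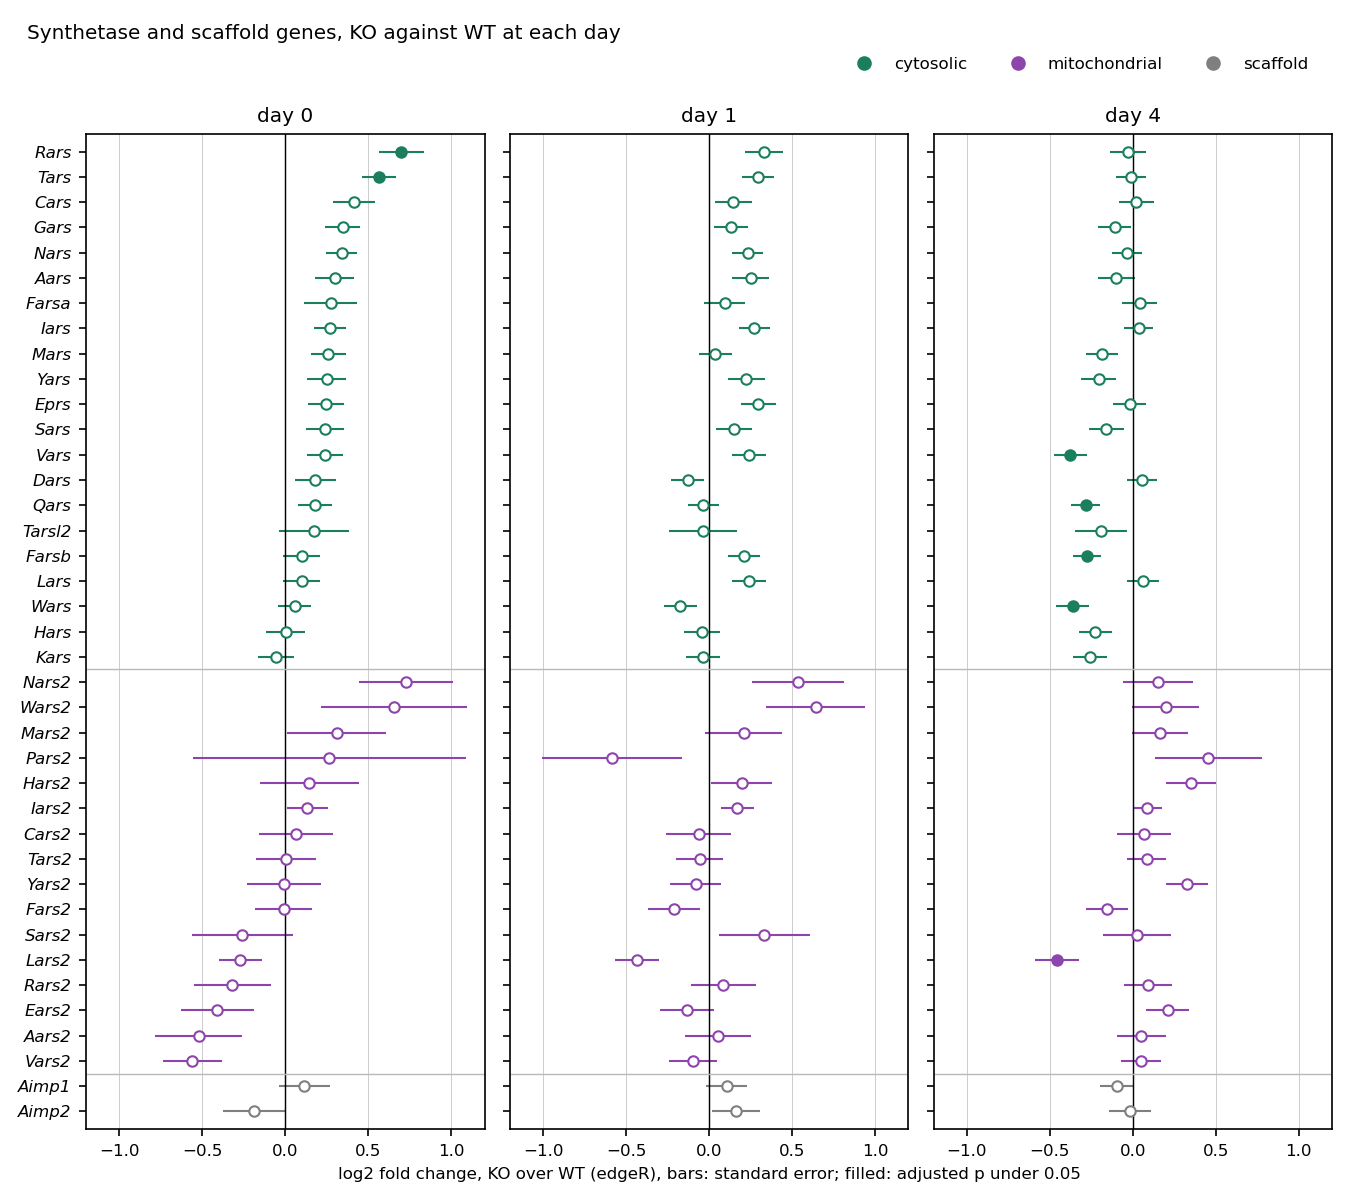
Log2 fold change of KO over WT (x axis, edgeR, bars are the standard error) for each of the 39 genes (y axis) at day 0, day 1 and day 4, with cytosolic genes in green, mitochondrial genes in purple and scaffold genes in grey and filled points where the adjusted p is under 0.05. At day 0, 20 of 21 cytosolic genes lie right of 0 and Rars and Tars are filled. At day 4, 16 of 21 lie left of 0 under TMM scaling and Vars, Wars, Farsb, Qars and the mitochondrial gene Lars2 are filled.

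Since ATF4 is known to act on synthetase genes through a composite element shared with C/EBP proteins, promoter sequences were searched for 1 form of that element, TGATGNAA, on both strands. The windows ran from 250 bases before to 50 bases after each start in RefSeq's annotation of GRCm38.p6, and 30 of the 39 members had 1. The members Cars, Hars, Hars2, Lars, Nars, Pars2, Rars, Vars and Wars were not matched. The element was found in 5 members, all cytosolic (5 of 14 matched), in 0 of 14 mitochondrial members and in 0 of 2 scaffold members, against 3.97% of all 32851 windows. Aars held it at 2 places. The stretches are shown because Tars, 1 of the 2 genes called at day 0, is among them. Letters in capitals mark the match, and in all but Yars it lies on the other strand, read as its reverse complement.
Tars (threonine), chr15:11399659-11399718, minus strand, match 15 bases before the start: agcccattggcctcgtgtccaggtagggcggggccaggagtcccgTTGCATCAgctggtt
Gars (glycine), chr6:55037941-55038000, plus strand, match 30 bases before the start: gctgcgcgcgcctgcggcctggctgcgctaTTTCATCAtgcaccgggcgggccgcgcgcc
Aars (alanine), chr8:111033704-111033763, plus strand, match 112 bases before the start: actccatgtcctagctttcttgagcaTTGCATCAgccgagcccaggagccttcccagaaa
Aars, chr8:111033840-111033869, plus strand, match 9 bases after the start: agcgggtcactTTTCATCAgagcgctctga
Iars (isoleucine), chr13:49682126-49682155, plus strand, match 7 bases after the start: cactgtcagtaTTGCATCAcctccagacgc
Yars (tyrosine), chr4:129189895-129189924, plus strand, match 3 bases after the start: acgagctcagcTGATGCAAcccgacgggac
A match is a description of the letters and does not show that a factor binds there. In KO against WT at day 0 the 5 genes had log2 fold changes of 0.57 (Tars), 0.34 (Gars), 0.30 (Aars), 0.27 (Iars) and 0.25 (Yars). Only Tars was called. Each value was positive, as were those of 20 of the 21 cytosolic genes. Over the first day in WT the 5 genes did not share a direction. From day 0 to day 1 in WT, Aars and Gars rose, Yars fell, and Tars and Iars were not called.

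Other genes of the ATF4 and amino acid response stood higher in KO at day 0. Of 37 listed, 14 were called higher and 0 lower, where 0.644% of genes tested were called higher and 0.530% lower. Their median log2 fold change was 0.43. The list was chosen with earlier results of these data known. Slc7a3, a transporter of basic amino acids, had 39.6, 40.3 and 29.3 CPM in KO libraries, against 15.4, 10.5 and 11.02 CPM in WT libraries (log2 fold change 1.58, adjusted p = 1.64e-07 from edgeR). Sesn2, which restrains mTORC1 when leucine is short, had 37.7, 31.6 and 31.5 CPM in KO libraries, against 13.4, 12.8 and 12.2 CPM in WT libraries (log2 fold change 1.40, adjusted p = 1.72e-07). Ddit4, another inhibitor of mTORC1, and Slc38a2, a neutral amino acid transporter, were called as well, at 1.33 (adjusted p = 0.000117) and 0.59 (adjusted p = 0.00244). Atf4 itself had 139, 151 and 170 CPM in KO libraries and 158, 104 and 123 CPM in WT libraries, and the groups overlapped. Of 29 other genes that act in charging, processing or delivering transfer RNA, 28 were tested and 0 were called in KO against WT at day 0 by edgeR, with a median of -0.02. Eef1e1, a further scaffold protein of the complex, averaged 4.44 ± 0.819 CPM in KO and 3.45 ± 0.570 CPM in WT at day 0 (SD, n = 3 each).

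After 1 day of culture, 0 of 39 members were called in either direction in KO against WT by edgeR, where 0.273% of tested genes were called higher and 1.18% lower. An unadjusted p under 0.05 was reached by 10 members higher and 1 lower. DESeq2 called 2 members higher and 1 lower, where it called 231 of 12877 genes higher and 431 lower. The cytosolic median was 0.15, with 15 of 21 values positive, and 6 genes (Rars, Tars, Nars, Iars, Yars and Farsb) had every KO library above every WT library, beside 7.25% of all genes tested. Rars had 87.6, 97.2 and 100.04 CPM in KO libraries and 77.1, 75.0 and 74.7 CPM in WT libraries (log2 fold change 0.33, SE 0.11, adjusted p = 0.154). Tars had 81.4, 86.1 and 73.0 CPM in KO libraries and 68.3, 59.1 and 68.6 CPM in WT libraries (0.29, SE 0.09, adjusted p = 0.118). Both had KO and WT libraries apart but did not pass the test over all genes. In 0 cytosolic genes every KO library lay below every WT library, beside 9.85% of all genes tested. The mitochondrial median was -0.002. This comparison depended on the scaling. Under library totals in place of TMM, the median of all genes shifted to 0.32 and 19 members were called higher and 0 lower. Of all 13203 genes tested, 2347 were then called higher and 51 lower. The direction of members here thus holds only relative to the bulk of genes. Without KO replicate 1, 2 members were called higher, where 68 of 13525 genes were.

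After 4 days, cytosolic members leaned the other way. In KO, 5 members were called lower and 0 higher, where 6.39% of tested genes were called lower and 3.83% higher. Vars, the free valine enzyme at chr17:35000987-35016322 on the plus strand, had 56.9, 57.4 and 62.4 CPM in KO libraries, against 73.5, 72.8 and 83.2 CPM in WT libraries. Every KO library lay below every WT library, and the log2 fold change was -0.38 (SE 0.10, adjusted p = 0.0131 from edgeR). Wars, the tryptophan enzyme, which interferon is known to induce, had 114, 116 and 119 CPM in KO libraries, against 144, 144 and 161 CPM in WT libraries (-0.36, SE 0.10, adjusted p = 0.0156). Farsb, the β subunit of the phenylalanine enzyme, had 22.5, 22.8 and 23.1 CPM in KO libraries, against 28.3, 26.7 and 27.8 CPM in WT libraries (-0.28, SE 0.08, adjusted p = 0.0316). Its partner Farsa did not follow, at 0.04 (SE 0.10, adjusted p = 0.859), with 16.6, 15.6 and 17.02 CPM in KO libraries and 15.8, 15.1 and 16.99 CPM in WT libraries. Qars, the glutamine enzyme of the complex, had 71.1, 74.3 and 74.1 CPM in KO libraries, against 90.2, 83.2 and 94.0 CPM in WT libraries (-0.28, SE 0.09, adjusted p = 0.0317). The fifth was Lars2, with 564, 652 and 764 CPM in KO libraries, against 936, 877 and 903 CPM in WT libraries (-0.46, SE 0.13, adjusted p = 0.0214), whose reads are uncertain as described above. Farsb overlaps Sgpp2 on the opposite strand over 2315 bases, and since the strand setting of the counting is not stated, reads of this pair cannot be told apart there.

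Over all 21 cytosolic genes at day 4, 16 had a negative log2 fold change, with a median of -0.11 beside -0.02 for all genes tested. In 9 of them every KO library lay below every WT library and in 1 (Dars) above, where 22.6% of all genes tested lay below and 21.2% above. Of the 16 mitochondrial genes, 14 had a positive value, with a median of 0.09. The largest of them were Pars2 (0.45, adjusted p = 0.419), Hars2 (0.35, adjusted p = 0.138) and Yars2 (0.33, adjusted p = 0.106), none of them called. An unadjusted p under 0.05 was reached by 2 mitochondrial genes higher. DESeq2 called 2 members higher and 7 lower, where it called 1170 of 15127 genes higher and 1504 lower. The called differences at day 4 were small and rested on few libraries. With KO replicate 1 or KO replicate 2 left out, 0 members were called lower, with KO replicate 3 left out 2, with WT replicate 1 left out 2, and with WT replicate 3 left out 1. Of all genes tested, 399 to 585 were called lower without 1 library. Library totals, which moved the median of all genes to 0.15, gave 2 members higher and 1 lower. Under library totals 1010 of 13203 genes tested were called higher and 369 lower, so directions at day 4 are relative to the bulk of genes. The values of Vars, Wars, Farsb and Qars stayed negative there (-0.21 to -0.11) and lost the call. Markers of fibroblasts summed to 25.3 to 57.5 CPM in KO libraries at day 4, against 235 to 324 CPM in WT libraries, with none of the 9 markers at 0 throughout, and 11 of 18 acinar markers were lower in KO. Their part in the synthetase results was not tested.

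From the 37 genes of the ATF4 and amino acid response, 5 were called higher and 0 lower in KO at day 4. Of all genes tested, 3.83% were called higher and 6.39% lower at that day. The smallest adjusted p was that of Ppp1r15a (0.57), which reverses the phosphorylation of eIF2α. Next came Ddit3 (0.43), a stress transcription factor, Gpt2 (0.37), a mitochondrial alanine aminotransferase, and Sesn2 (0.31), not listed in order of p. At day 1, 1 was called higher (Slc7a3, 0.55), where 0.273% of genes tested were called higher and 1.18% lower. Mars overlaps Ddit3 by 68 bases on the opposite strand and had a log2 fold change of -0.19 (adjusted p = 0.252) at day 4. Of the 28 other transfer RNA genes tested, 0 were called at day 1 and 2 were called higher at day 4, Ankrd16, a cofactor of the alanine enzyme, at 1.52 (adjusted p = 9.23e-05) and Trnt1, which adds the CCA end, at 0.41 (adjusted p = 0.0483). Ankrd16 had 4.21, 4.55 and 5.31 CPM in KO libraries at day 4, against 1.72, 1.52 and 1.66 CPM in WT libraries.

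**Figure D4:**
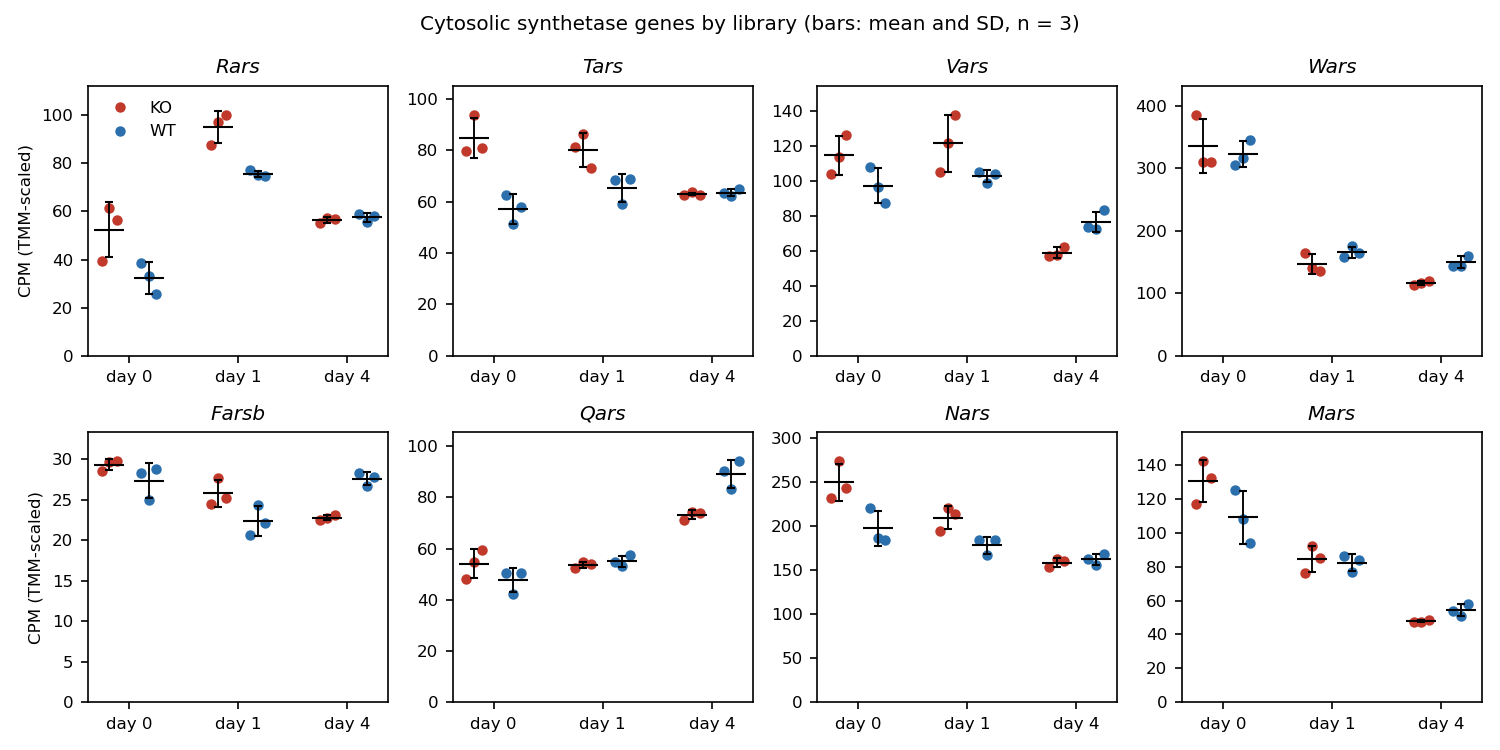
CPM (y axis, TMM-scaled) of 8 cytosolic synthetase genes by day, with KO in red to the left of WT in blue, a point for each library and bars for the mean and SD (n = 3). Rars and Tars lie higher in KO at day 0 and together with WT at day 4, while Vars, Wars, Farsb and Qars lie lower in KO at day 4. Nars and Mars are shown as members not called in KO against WT.

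The change of the genotype difference between days was tested as an interaction. From day 0 to day 1, 0 members were called in either direction by edgeR and by DESeq2. Of all genes tested, edgeR called 0.0151% higher and 0.0833% lower, and DESeq2 called 57 of 11976 higher and 125 lower. At an unadjusted p under 0.05 there were 0 higher and 1 lower. From day 1 to day 4, 2 members were called lower and 0 higher, where 1.67% of genes were called lower and 0.924% higher. For Vars the difference between KO and WT was lower at day 4 than at day 1 by 0.62 on the log2 scale (interaction -0.62, SE 0.14, adjusted p = 0.014 from edgeR), since KO libraries held 105, 121 and 138 CPM at day 1, against 105, 98.7 and 104 CPM in WT libraries. For Farsb the interaction was -0.48 (SE 0.13, adjusted p = 0.0363). KO libraries held 24.4, 27.6 and 25.2 CPM of it at day 1, against 20.6, 24.3 and 22.1 CPM in WT libraries. The cytosolic median of this interaction was -0.24, with 20 of 21 values negative and only Dars above 0, and the mitochondrial median was 0.03, with 9 of 16 positive. The interactions of the first and of the later interval share the day 1 libraries. The call on Farsb was lost without 9 of 12 single libraries and that on Vars without KO day 4 replicate 2 (adjusted p = 0.0518), when 0 members were called.

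Over the first day of culture, members moved in both directions in both genotypes. In KO, 6 of 39 members were called higher and 12 were called lower on day 1 relative to day 0, where 30.5% of genes were called higher and 27.6% lower. In WT, 10 were higher and 14 lower, where 28.6% and 26.9% of genes were. These directions are relative to the bulk of genes. Under library totals, which moved the median of all genes to 1.29 in KO and 0.998 in WT, 36 members in KO and 32 in WT were called higher and 0 lower in either genotype. Of all 13203 genes tested, 9173 in KO and 8168 in WT were then called higher, and 705 and 943 lower.

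Rars had the largest called increase of the cytosolic members. It had 87.6, 97.2 and 100.04 CPM in KO libraries at day 1, against 39.4, 61.5 and 56.4 CPM at day 0, and 77.1, 75.0 and 74.7 CPM in WT libraries at day 1, against 38.4, 33.1 and 25.5 CPM at day 0. The log2 fold changes were 0.86 in KO (SE 0.12, adjusted p = 3.85e-07) and 1.23 in WT (SE 0.13, adjusted p = 1.88e-09), with no overlap between days in either genotype. Sars, the serine enzyme, had 161, 198 and 217 CPM in KO libraries at day 1, against 123, 140 and 124 CPM at day 0, and 165, 167 and 186 CPM in WT libraries at day 1, against 127, 97.6 and 102 CPM at day 0 (0.58 in KO and 0.67 in WT). Aars rose by 0.41 in KO and 0.46 in WT, and Dars, the aspartate enzyme of the complex, had a value of 0.15 in KO (adjusted p = 0.255) and rose by 0.46 in WT. Dars had 32.04, 29.1 and 32.2 CPM in KO libraries at day 1, against 32.2, 27.6 and 24.1 CPM at day 0, and 37.9, 32.8 and 31.3 CPM in WT libraries at day 1, against 23.9, 23.4 and 26.9 CPM at day 0. Aars had 140, 182 and 188 CPM in KO libraries at day 1, against 118, 134 and 131 CPM at day 0, and 146, 143 and 139 CPM in WT libraries at day 1, against 127, 93.4 and 91.4 CPM at day 0. Hars2, the mitochondrial histidine enzyme, rose by 0.94 in KO (SE 0.23, adjusted p = 0.000812) and 0.89 in WT (SE 0.25, adjusted p = 0.00305), with 8.48, 6.82 and 9.21 CPM in KO libraries at day 1, against 4.50, 4.81 and 3.39 CPM at day 0, and 7.14, 7.65 and 6.59 CPM in WT libraries at day 1, against 6.02, 3.77 and 1.93 CPM at day 0.

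Of those that fell, Wars had the smallest adjusted p in both genotypes. It had 165, 140 and 136 CPM in KO libraries at day 1, against 386, 310 and 310 CPM at day 0, and 158, 176 and 164 CPM in WT libraries at day 1, against 305, 317 and 345 CPM at day 0. The log2 fold changes were -1.19 in KO (SE 0.10, adjusted p = 1.95e-11) and -0.96 in WT (SE 0.10, adjusted p = 2.04e-09). Hars, the cytosolic histidine enzyme, had 28.2, 27.3 and 30.02 CPM in KO libraries at day 1, against 49.3, 44.3 and 52.6 CPM at day 0, and 31.2, 28.0 and 28.9 CPM in WT libraries at day 1, against 59.8, 43.5 and 43.3 CPM at day 0 (-0.78 in KO and -0.73 in WT). Hars and Hars2 lie on opposite strands with 198 bases in common, and they moved in opposite directions in both genotypes under TMM scaling, while under library totals both had positive values. Yars, the tyrosine enzyme, had 46.2, 59.0 and 52.1 CPM in KO libraries at day 1, against 78.5, 101 and 77.1 CPM at day 0, and 44.2, 45.7 and 44.8 CPM in WT libraries at day 1, against 84.1, 67.2 and 64.5 CPM at day 0 (-0.70 in KO and -0.68 in WT). Lars2 fell by 0.97 in KO and 0.81 in WT on this scale. For Wars, Hars, Yars and Lars2 the direction turned under library totals, by which they had small positive values in both genotypes (0.02 to 0.55), so their decrease is relative to other genes. Cytosolic members called in KO numbered 3 higher and 8 lower, mitochondrial ones 2 higher and 4 lower, and Aimp2 was higher (0.43, adjusted p = 0.0248). In WT the cytosolic count was 7 higher and 8 lower and the mitochondrial count 3 higher and 6 lower.

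Of the ATF4 and amino acid response genes, 14 of 37 were called higher and 13 were called lower in WT on day 1 relative to day 0. Of all genes tested, 28.6% were called higher and 26.9% lower, so many calls in either direction are common here. Those of smallest adjusted p that rose were Ppp1r15a (log2 fold change 3.48), Ddit3 (4.40), Ddit4 (3.70) and Sesn2 (2.41), and those that fell were Pycr1 (-1.73) and Aldh18a1 (-1.12) of proline synthesis, Slc38a2 (-0.80) and Asns (-0.67), the asparagine synthetase. Atf4 had 348, 286 and 332 CPM in WT libraries at day 1, against 158, 104 and 123 CPM at day 0. Of the 28 other transfer RNA genes, 3 rose (Yrdc, Trnt1 and Tsfm) and 15 fell, beside the same shares of all genes tested. Those that fell with the smallest adjusted p were Elac1 (-1.35), Sepsecs (-1.11), Eef1d (-0.51) and Eef1g (-0.49). Eef1d and Eef1g are subunits of the elongation factor that reloads eEF1A. Yrdc, which makes the t6A modification, rose by 0.88, and Trnt1 by 0.997.

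From day 1 to day 4, decreases outnumbered increases among cytosolic members. In KO, 20 of 39 members were called lower and 4 were called higher on day 4 relative to day 1, where 27.1% of genes were called lower and 26.2% higher. In WT, 15 were lower and 6 higher, where 26.0% and 26.3% of genes were. The cytosolic part of this was 16 of 21 lower and 1 higher in KO and 9 lower and 3 higher in WT, and the mitochondrial part was 3 of 16 lower and 2 higher in KO and 5 lower and 2 higher in WT. In KO all 13 free cytosolic enzymes had a negative value and 12 were called, while of the 8 in the multisynthetase complex 4 were called lower and 1 higher. The cytosolic median was -0.35 in KO and -0.23 in WT, beside 0.04 and 0.05 for all genes tested. The counts of decreases rest on scaling to the bulk of genes. Under library totals, which moved the median of all genes to 1.86 in KO and 2.03 in WT, 38 members were called higher and 1, Lars2, lower in each genotype. Of all 13203 genes tested, 12031 in KO and 12204 in WT were then called higher, and 347 and 300 lower.

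Vars had 56.9, 57.4 and 62.4 CPM in KO libraries at day 4, against 105, 121 and 138 CPM at day 1, and 73.5, 72.8 and 83.2 CPM in WT libraries at day 4, against 105, 98.7 and 104 CPM at day 1. The log2 fold changes were -1.04 in KO (SE 0.10, adjusted p = 5.65e-10) and -0.42 in WT (SE 0.10, adjusted p = 0.000799), and their difference is the interaction given above. Mars, the methionine enzyme of the complex, had 47.6, 47.5 and 48.6 CPM in KO libraries at day 4, against 76.5, 91.9 and 84.9 CPM at day 1, and 54.0, 51.1 and 58.2 CPM in WT libraries at day 4, against 86.3, 76.6 and 83.7 CPM at day 1 (-0.82 in KO and -0.59 in WT). The decrease of Yars was called in both genotypes, with 30.6, 32.1 and 31.3 CPM in KO libraries at day 4, against 46.2, 59.0 and 52.1 CPM at day 1, and 35.8, 32.6 and 39.8 CPM in WT libraries at day 4, against 44.2, 45.7 and 44.8 CPM at day 1 (-0.74 in KO and -0.32 in WT). The scaffold gene Aimp2 fell by 0.83 in KO and 0.65 in WT, and had 9.69, 9.76 and 9.17 CPM in KO libraries at day 4, against 16.4, 16.4 and 18.3 CPM at day 1, and 9.85, 10.04 and 9.11 CPM in WT libraries at day 4, against 12.05, 14.996 and 18.6 CPM at day 1. Lars2 had log2 fold changes of -2.52 in KO and -2.50 in WT. Its FPKM did not follow, at 206 or 267 in every library, since these are the values of the ranks it held.

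Qars was the 1 cytosolic gene called higher in both genotypes under TMM scaling. It had 71.1, 74.3 and 74.1 CPM in KO libraries at day 4, against 52.5, 54.9 and 53.8 CPM at day 1, and 90.2, 83.2 and 94.0 CPM in WT libraries at day 4, against 54.8, 53.1 and 57.4 CPM at day 1. The log2 fold changes were 0.44 in KO (SE 0.09, adjusted p = 0.000113) and 0.69 in WT (SE 0.09, adjusted p = 1.55e-07). Aimp1, which anchors the arginine enzyme in the complex, rose by 0.46 in KO and 0.66 in WT, with 28.1, 30.4 and 32.03 CPM in KO libraries at day 4, against 24.8, 21.2 and 19.9 CPM at day 1, and 31.5, 31.7 and 33.6 CPM in WT libraries at day 4, against 17.1, 20.4 and 24.0 CPM at day 1. The scaffold genes of the same complex thus changed in opposite directions under TMM scaling, while under library totals both were higher. On the opposite strand Aimp2 overlaps Eif2ak1 by 1548 bases and Aimp1 overlaps Tbck by 227. Since the strand setting of the counting is not stated, reads of these pairs cannot be told apart there. Iars2, the mitochondrial isoleucine enzyme, rose by 0.33 in KO and 0.41 in WT, and had 32.9, 34.3 and 34.9 CPM in KO libraries at day 4, against 26.9, 26.7 and 27.8 CPM at day 1, and 32.5, 33.4 and 30.2 CPM in WT libraries at day 4, against 27.1, 22.5 and 22.7 CPM at day 1. It overlaps Rab3gap2 on the opposite strand by 2034 bases. Rars2, the mitochondrial arginine enzyme, was called higher in KO alone at 0.40 (SE 0.17, adjusted p = 0.0422), with 7.34, 6.40 and 7.53 CPM at day 4, against 6.34, 4.57 and 5.18 CPM at day 1. Its value in WT was also 0.40 (adjusted p = 0.0603), with 6.93, 6.82 and 6.25 CPM in WT libraries at day 4, against 4.54, 5.38 and 5.29 CPM at day 1, and the call in KO was lost without 4 of 6 single libraries. Farsb had a value of -0.18 in KO (adjusted p = 0.0948) and was called higher in WT at 0.31 (adjusted p = 0.00637).

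**Figure D5:**
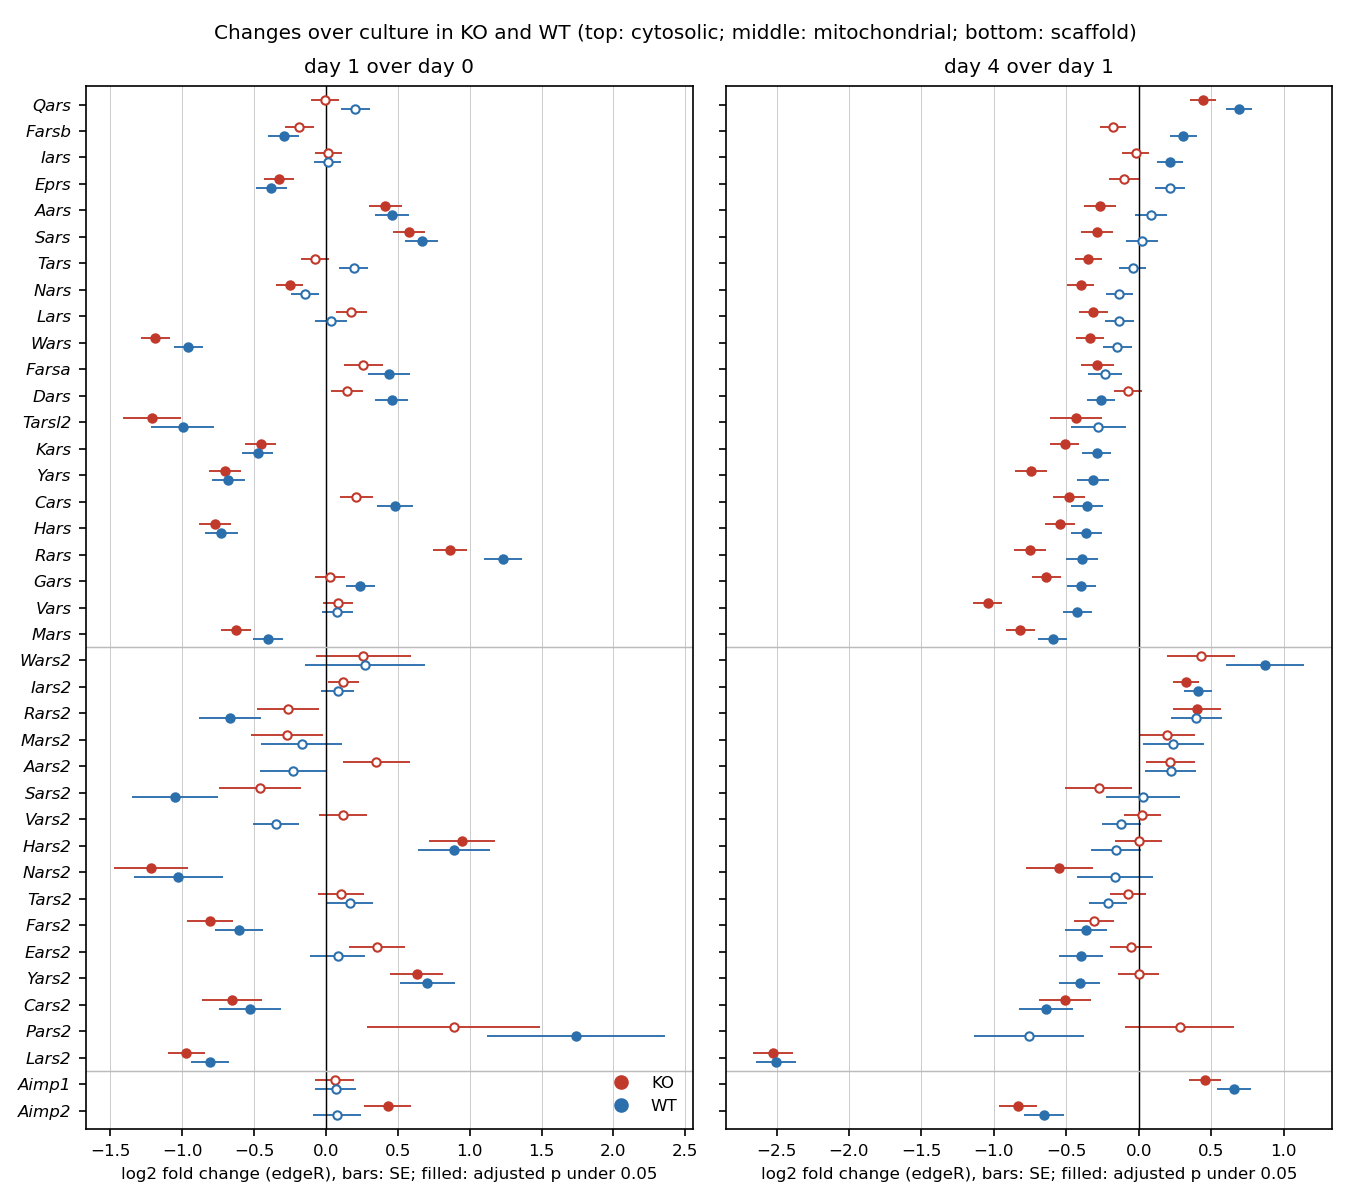
Log2 fold change of day 1 over day 0 (left) and of day 4 over day 1 (right) on the x axes, from edgeR with the standard error, for each of the 39 genes (y axis), with KO in red above WT in blue and filled points where the adjusted p is under 0.05. From day 1 to day 4, 16 of 21 cytosolic genes are called lower in KO and 9 in WT, and Qars, Aimp1 and Iars2 are called higher in both.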

How the data were processed

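Single-end RNA sequencing reads were trimmed and filtered by the authors, aligned to GRCm38 with Ensembl genes and assigned to genes with featureCounts 1.5.3. Neither aligner nor strand setting is given in the sources used here. The deposited counts are raw read counts of 46603 genes. The deposited FPKM values, of 13324 genes, were computed by the authors from counts that EDASeq had quantile-normalized within and between libraries, which forces equal distributions and ties. Columns were assigned by their labels, and 0 columns belonged to other samples.

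Counts were analysed in R 4.3.3 with edgeR 4.0.16 (default filter, TMM, robust quasi-likelihood F-test, 1 model of 6 groups), and p-values were adjusted by Benjamini-Hochberg over the 13203 genes tested. CPM are scaled by TMM. DESeq2 1.42.0, and limma 3.58.1 on log2(FPKM + 0.1), were alternatives, and the closing section gives their effect. The fits were tested on simulated data. Sequence shared with Lars2 was found with BLAST 2.17.0, and overlaps and chromosomes come from GENCODE vM21, in which 27 of 39 members had the deposited start and end.

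Members and lists were chosen with earlier results of these data known. Values per library are given for called members in KO against WT (4 of smallest adjusted p at most, to which the fifth at day 4 was added after its value was seen, as were Farsa and other members named beside a count), for 4 per direction over time, for the 3 highest and lowest levels per compartment and for called interactions. From the 2 other gene lists, up to 4 called genes per direction are named. Libraries were grouped by labelled genotype and day, and their numbers were not taken as pairs. Counting limits precision most at day 0.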

Additional observations from a re-analysis of the deposited data

Results flagged for a closer look

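The difference between KO and WT changed from day 1 to day 4 for 2 members. For Vars, the genotype difference at day 4 minus that at day 1 was -0.62 on the log2 scale (SE 0.14, adjusted p = 0.014 from edgeR), and for Farsb it was -0.48 (SE 0.13, adjusted p = 0.0363). All 3 KO libraries lay below all 3 WT libraries for both genes at day 4. No group of libraries here was of a size at which a single library could be tested as standing apart.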

How the results depend on the processing

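Counts of members called in KO against WT changed with most settings. At day 0 (2 higher, 0 lower) library totals gave 4 higher, limma on FPKM 1, a fit of the 2 groups alone 1, leaving out WT replicate 1 at every day 6, and DESeq2 gave 1 lower. Leaving out 1 library gave 1 to 6 higher and 0 to 1 lower. Of all genes tested at day 0, limma called 176 of 13324 higher and the 2 groups alone 25 of 9651. The fit without WT replicate 1 at every day called 89 of 13455 higher. Without 1 library, 35 to 134 genes were called higher and 32 to 88 lower. At day 1 (0 and 0) library totals gave 19 higher, DESeq2 2, no filter 1 and limma 3, DESeq2, no filter and the 2 groups alone each gave 1 lower, and leaving out 1 library gave 0 to 2 higher. Of all genes tested at day 1, no filter called 124 of 23251 higher and 260 lower. Limma called 19 of 13324 higher, and the 2 groups alone called 188 of 10926 lower. Without 1 library, 6 to 69 genes were called higher. At day 4 (5 lower, 0 higher) library totals, DESeq2 and the 2 groups alone each gave 2 higher, and the number lower was 1 under library totals, 3 with no filter, 1 under limma, 9 with the 2 groups alone, 2 without WT replicate 1 at every day and 0 to 4 without 1 library. Of all genes tested at day 4, the 2 groups alone called 1850 of 13279 higher and 1930 lower. No filter called 981 of 23251 lower, limma 209 of 13324, and the fit without WT replicate 1 at every day 659 of 13455. Without 1 library, 399 to 585 genes were called lower. For the interaction from day 1 to day 4 (2 lower) it was 4 under library totals, 1 with no filter, 1 without WT replicate 1 at every day and 0 to 2 without 1 library. Of all genes tested for this interaction, no filter called 360 of 23251 lower. The fit without WT replicate 1 at every day called 77 of 13455 lower, and fits without 1 library called 125 to 260 lower. Over time, library totals gave 36 higher and 0 lower for KO day 1 against day 0, 32 and 0 for WT day 1 against day 0, 38 and 1 for KO day 4 against day 1 and 38 and 1 for WT day 4 against day 1. For KO day 4 against day 1 limma gave 1 higher and 11 lower, and for WT day 4 against day 1, 9 were lower with no filter and 7 under limma. Of all 13324 genes tested by limma, 2693 were called higher and 2535 lower in KO, and 2714 lower in WT. No filter called 3210 of 23251 genes lower in WT. Of 13203 genes tested, library totals called 86 higher and 35 lower in KO against WT at day 0. For the interaction from day 1 to day 4 they called 23 higher and 263 lower. The numbers of all genes called under library totals in the other comparisons are given above. Library totals move the median of all genes as given above. For the other settings the cause was not tested. DESeq2 size factors and TMM without acinar markers kept each count within 1.5 times.

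Signs were compared between settings for the called members of smallest adjusted p only, over time 4 per direction at most. Other called members can have changed sign as well, so what follows is not a full list. Under library totals, signs changed for KO day 1 against day 0 in Wars (0.048), Lars2 (0.28), Hars (0.47) and Yars (0.55). For WT day 1 against day 0 they changed in Wars (0.020), Hars (0.28), Lars2 (0.19) and Yars (0.33). For KO day 4 against day 1 they changed in Vars (0.80), Mars (1.02) and Yars (1.09), and for WT day 4 against day 1 in Mars (1.38), Aimp2 (1.33) and Vars (1.55). Among the same members, Lars2 (0.25 in KO and 0.25 in WT) and Vars (0.081 in WT) changed sign under limma on FPKM for day 4 against day 1.

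The ratio of cytosolic to mitochondrial FPKM with Lars2 was 1.44 and 1.27 in KO and WT at day 0, 1.89 and 1.49 at day 1 and 1.41 and 1.29 at day 4. Leaving out Lars2, a choice made after seeing the data, gave 15.1 and 13.1, 19.2 and 16.4, and 16.97 and 18.5. As CPM per kilobase with Lars2 it was 0.296 and 0.210, 0.492 and 0.333, and 1.88 and 1.55. Without Gars, Kars and Tarsl2 it was 1.19 and 1.03, 1.53 and 1.19, and 1.17 and 1.07.

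Replicate numbers were also entered as a block, by number alone for KO against WT. For comparisons over time and interactions the block was genotype and number together, which pairs libraries of 1 genotype and number across days. The interaction from day 1 to day 4 then called 1 member lower, where 230 of 13203 genes were. The other counts stayed within 1.5 times. Deviations of libraries of 1 genotype and number at 2 days correlated at -0.04 to 0.22 (median 0.07, 18 pairs). Those of 1 genotype and different numbers correlated at -0.27 to 0.09 (median -0.035, 36 pairs). Ddx3y was found in WT replicate 1 at each day and in no library of another number or of KO. These values do not settle whether libraries of 1 number share an animal. If they do, comparisons over time and interactions in the main fit took libraries of 1 animal as independent. The main fit did not take the numbers as pairs.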
